A study of Sus scrofa domesticus with 4 samples.

Results

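The 8 genes of selenium and peroxide handling described here were measured in the anterior pituitary of pregnant and cyclic pigs: the selenoproteins SELENOM, SELENOP, GPX1 and GPX4, and the antioxidant enzymes CAT, SOD1, PRDX6 and TXN. They were the members of a list of 9 genes that had a probe on the array, found by the RefSeq accession that the scanner files give for each probe. The ninth, SOD2, the mitochondrial superoxide dismutase, matched 0 probes and was not analysed here. The 8 genes held 39 of the 43603 probes of the array and 8 of its 3029 named genes. SELENOP had 10 probes, CAT 9, GPX1 and PRDX6 6 each, GPX4 3, SOD1 and TXN 2 each, and SELENOM 1. All 39 were well above background in all 8 channels, so 39 of 39 entered the test.

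Pregnant gilts, mated at estrus and carrying conceptuses at slaughter, were set against cyclic gilts of the same days, all of a Large White x Polish Landrace cross. Both groups were collected on days 15 to 16, of pregnancy and of the estrous cycle, with 4 animals each. RNA of 1 pregnant and 1 cyclic animal was hybridised together on each of 4 two-colour arrays. By the label fields the dye of the pregnant animal was Cy3 for arrays 1 and 3 and Cy5 for arrays 2 and 4, while the text of the labelling protocol names 1 orientation for all arrays, with pregnant RNA in Cy3, called the single orientation below. Ratios below follow the label fields, and the results that turn with the other reading are given beside them.

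Selenoproteins carry selenocysteine, an amino acid inserted at a UGA codon through a hairpin in the 3' untranslated region of the mRNA. Superoxide dismutases turn superoxide into hydrogen peroxide, which catalase, the glutathione peroxidases and the peroxiredoxins then remove. The glutathione peroxidases and peroxiredoxins, unlike catalase, use glutathione or thioredoxin as electron donor. Hormone-secreting cells fold and oxidise large amounts of protein in the endoplasmic reticulum, a process that itself makes hydrogen peroxide.

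The whole array set the scale for these genes. Between 50.4% and 60.4% of the spots of the pregnant channels and between 52.5% and 66.5% of those of the cyclic channels were well above background, and 0 spots were saturated. All 7 hormone genes that define the secretory cells of the anterior lobe were on the array and above the filter on dim probes. Of 25138 probes tested, 0 passed an adjusted p of 0.05 (0.00%, limma with Benjamini-Hochberg adjustment), and 2012 (8.00%) had an unadjusted p under 0.05, 862 higher (3.43%) and 1150 lower (4.57%) in pregnant animals. The median estimate over all probes was -0.0096. Levels below are normalized log2 intensities of 1 animal, ratios are log2 of pregnant over cyclic on 1 array, and an estimate is the ratio fitted over 4 arrays beside a dye effect of the probe, with its standard error. The RNA came from whole tissue, so fewer cells of a type and less RNA per cell cannot be told apart. The small number of arrays limits the precision of these values.

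SELENOM, a small thioredoxin-fold selenoprotein of the endoplasmic reticulum, gave the lowest unadjusted p of the 39 probes, and its level was lower in the pregnant animal of every array. Pregnant animals of arrays 1 to 4 had log2 levels of 8.26, 8.67, 8.44 and 8.59, against 9.71, 9.95, 8.87 and 9.11 in the cyclic animals. Every pregnant value lay below every cyclic value, which held for 531 of all probes tested (2.11%). The pregnant animals were close together and the cyclic ones were not: the means were 8.49 ± 0.18 in pregnant and 9.41 ± 0.50 in cyclic animals (SD, n = 4 each), and the cyclic animals of arrays 1 and 2 were the high ones. Array ratios were therefore uneven, at -1.44, -1.27, -0.43 and -0.53. The estimate was -0.92 ± 0.21, a fold of 0.529 with a 95% interval of 0.366 to 0.765. Its unadjusted p was 0.00613, rank 210 of 25138 probes (0.835%), and it did not pass adjustment (limma with Benjamini-Hochberg adjustment over all probes, adjusted p = 0.605). The dye effect of the probe was 0.02 ± 0.21.

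Other preparations of the same spots kept the SELENOM estimate below 0, with different sizes. In the authors' deposited table the ratios of the probe were -1.57, -1.48, -0.55 and -0.76 on arrays 1 to 4. With background parameters estimated from all spots the estimate was -0.48, from ratios of -1.14, -0.28, -0.42 and -0.09 on arrays 1 to 4. Without array 1 it was -0.67 and without array 3 it was -1.17. The reading of the dyes mattered most: with pregnant RNA in Cy3 on every array the ratios of arrays 2 and 4 turn to 1.27 and 0.53, and the estimate was -0.02. With a single probe, no second measurement of SELENOM on the array bears on these values.

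**Figure D1:**
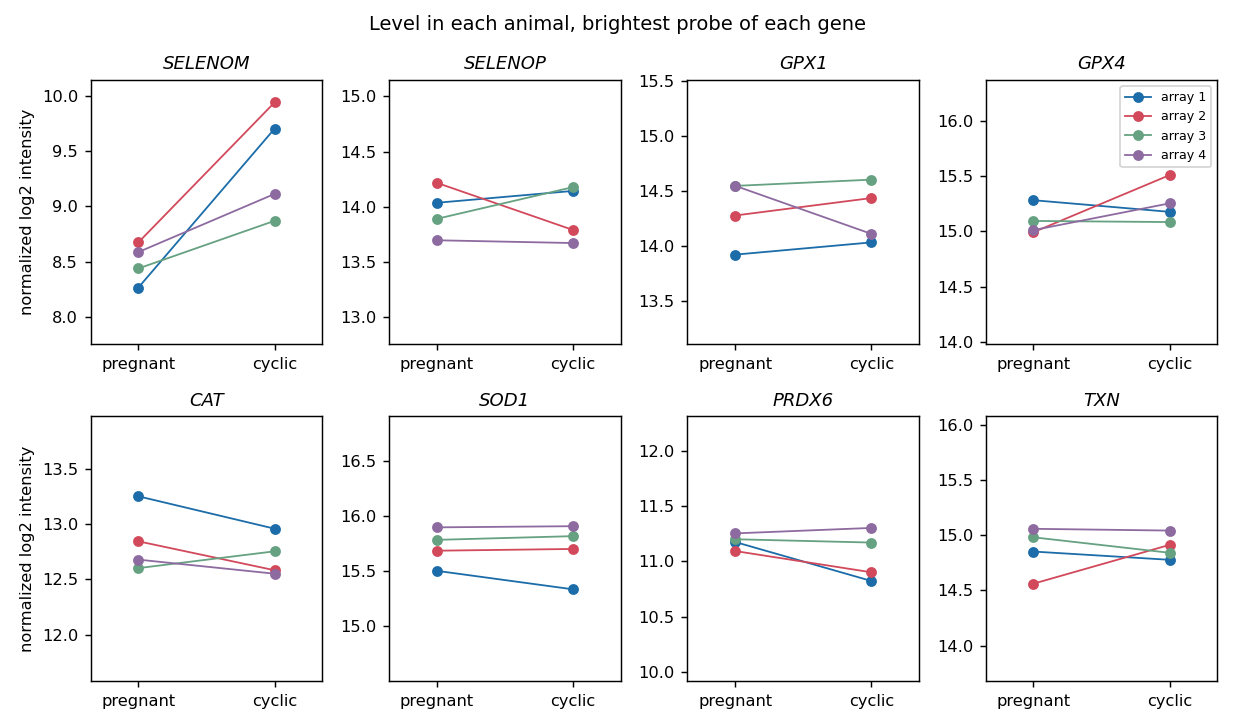
Normalized log2 intensity (y axis, each panel spanning the same range) of the brightest probe of each of the 8 genes in pregnant and cyclic animals (x axis), with a line joining the 2 animals of an array. All 4 SELENOM lines run upward from pregnant to cyclic, with pregnant animals between 8.26 and 8.67 and cyclic ones between 8.87 and 9.95, while the other 7 genes overlap between the groups.

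Marker genes of other cell types were summed in each animal for comparison. Of the folliculostellate cell markers 3 of 5 were on the array (CLU, SOX2 and ANXA1), and their summed linear level was 34111 to 57910 in pregnant animals and 64356 to 76833 in cyclic animals, without overlap. CLU, which encodes the secreted chaperone clusterin, carried most of that sum and had ratios of -0.60, -1.19, -0.23 and -0.43 (estimate -0.61 ± 0.16, unadjusted p = 0.0102, adjusted p = 0.605, limma with Benjamini-Hochberg adjustment). SOX2 stood at -0.14 ± 0.11 and ANXA1 at 0.0019 ± 0.16. S100B and FXYD1, which define these cells, matched 0 probes. Stromal markers, 7 of 9 on the array, summed to 16474 to 22301 in pregnant and 19710 to 31080 in cyclic animals, with overlap. Their estimates were below 0 for 7 of 7, beside 52.4% of all probes. Those nearest 0 were LUM at -0.08 ± 0.14 and DCN at -0.10 ± 0.16. An unadjusted p under 0.05 was found for 2 of the 7 (4.57% of all probes on the lower side), and 0 passed adjustment (limma). Endothelial markers (3 of 6) summed to 4111 to 5508 in pregnant and 4046 to 7092 in cyclic animals, and macrophage markers (7 of 9) to 6988 to 12083 in pregnant and 7741 to 12073 in cyclic animals. The 7 hormone genes summed to 871974 to 1389206 in pregnant and 1095044 to 1661928 in cyclic animals. Of their estimates 6 of 7 were below 0, beside 52.4% of all probes. Posterior lobe, intermediate lobe and glial markers (6 of 8) summed to 15132 to 27647 in pregnant and 19997 to 29417 in cyclic animals, and 0 of 8 erythrocyte markers matched a probe. The part of these cell types in the SELENOM ratio was not tested.

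The genes whose 8 levels ran most like those of SELENOM were PMM1, a phosphomannomutase of glycan precursor synthesis (Pearson r = 0.954), IRF7, an interferon regulatory factor (0.933), and SERPING1, the inhibitor of complement C1 (0.932). These values describe 8 channels on 4 shared arrays, among 2398 named genes compared, and 7 genes had an r over 0.9. PMM1 had an estimate of -0.15 ± 0.10, IRF7 of -0.68 ± 0.16 and SERPING1 of -0.43 ± 0.17. These genes were picked by their likeness to SELENOM, which was lower in pregnant animals. Their direction therefore follows from the selection and is no separate result.

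SELENOP, the secreted selenoprotein that carries selenium from the liver to other tissues and is also made locally, had estimates near 0 and ratios that changed sign with the dye. Its brightest probe had levels of 14.04, 14.22, 13.89 and 13.69 in pregnant animals, against 14.14, 13.79, 14.18 and 13.67 in cyclic animals of arrays 1 to 4. The groups overlapped, with means of 13.96 ± 0.22 and 13.94 ± 0.25 in pregnant and cyclic animals (SD, n = 4 each). The estimate was 0.01 ± 0.12 (limma with Benjamini-Hochberg adjustment, adjusted p = 0.977), with a 95% interval for the fold of 0.824 to 1.24. Without array 1 it was -0.03 and without array 2 it was -0.09.

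The estimates of the 10 SELENOP probes ran from -0.03 to 0.17 with a median of 0.07, and 0 had an unadjusted p under 0.05. The median ratio over the probes was -0.31, 0.63, -0.29 and 0.26 on arrays 1 to 4, so the arrays with pregnant RNA in Cy3 were below 0 and those with pregnant RNA in Cy5 above it. On array 2 all 10 probes were above 0 and on array 3 all 10 were below. Red exceeded green on 4 of 4 arrays for 8 of the 10 probes, a pattern found in 11.7% of all probes tested. The fitted dye effect ran from 0.07 to 0.52 with a median of 0.38, against a median size of 0.13 over all probes, and 7 of 10 had an unadjusted p under 0.05 for it, where 10.3% of all probes did. None of the dye effects passed adjustment (0 of 39 member probes and 0 of 25138 probes, limma with Benjamini-Hochberg adjustment), with the smallest adjusted p of the SELENOP probes at 0.476. These probes share a transcript and are no replicates of each other.

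Under the other reading of the dye labels SELENOP stood on 1 side of 0. With pregnant RNA in Cy3 on every array, 8 of 10 probes were below 0 on 4 of 4 arrays, and the estimates ran from -0.52 to -0.07 with a median of -0.38. In that reading 7 of 10 had an unadjusted p under 0.05, against 9.06% of all probes, and 0 passed adjustment (limma with Benjamini-Hochberg adjustment, smallest adjusted p = 0.524). Pregnancy and dye cannot be told apart in that reading, because each dye would hold 1 group. SELENOM and SELENOP thus depended on the dye labels in opposite ways, with SELENOM of 1 sign on every array by the label fields, and 8 of 10 SELENOP probes by the protocol text. The authors' deposited ratios were turned array by array as in the label fields, within 0.001 for 43553 of 43553 probes spotted singly. That match shows how the authors turned the ratios, and the dyes themselves could not be checked.

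**Figure D2:**
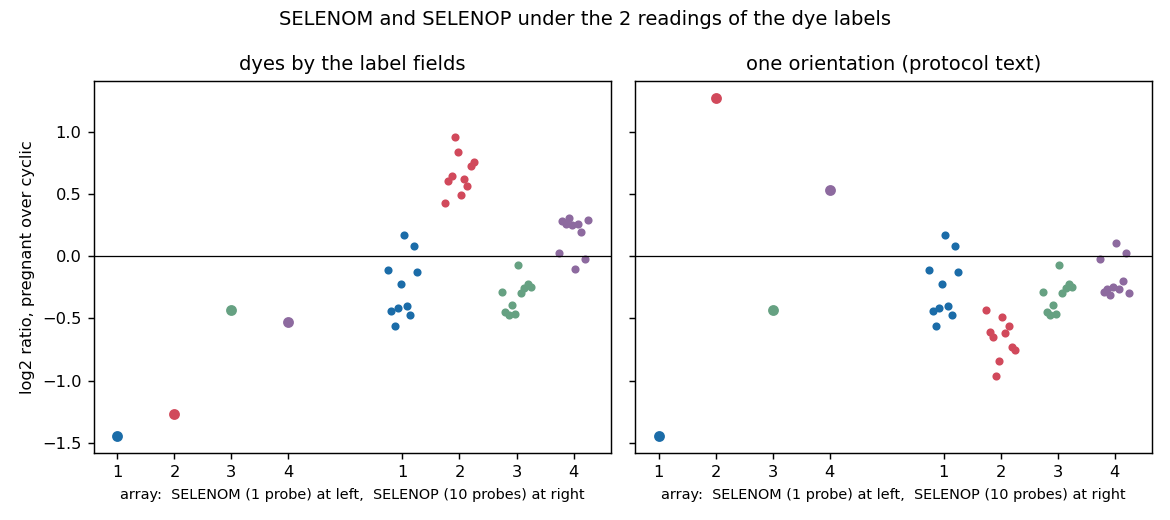
Log2 ratio of pregnant over cyclic (y axis) on arrays 1 to 4 (x axis) for the 1 SELENOM probe and the 10 SELENOP probes (points), with dyes by the label fields (left panel) and with pregnant RNA in Cy3 on all arrays (right panel). In the left panel SELENOM lies between -1.44 and -0.43 and the SELENOP medians alternate between -0.31, 0.63, -0.29 and 0.26, while in the right panel arrays 2 and 4 change sign for both genes.

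GPX1, the cytosolic and mitochondrial glutathione peroxidase whose mRNA is known to respond to selenium supply, had 6 of 6 estimates above 0, with array 4 far ahead. Over the probes, ratios on array 4 were 0.44 to 0.84, against -0.21 to 0.30 on array 1, -0.16 to 0.41 on array 2 and -0.22 to 0.03 on array 3. The brightest probe had levels of 13.92, 14.28, 14.55 and 14.55 in pregnant animals and of 14.04, 14.44, 14.60 and 14.11 in cyclic animals, with overlap, and an estimate of 0.03 ± 0.13. GPX1 probe 5, counted from the brightest, had the lowest p of the gene: its levels were 10.70, 11.23, 11.65 and 11.59 in pregnant and 10.40, 10.90, 11.62 and 10.84 in cyclic animals. Each pregnant animal exceeded the cyclic animal of its own array by 0.30, 0.33, 0.03 and 0.75, and the groups overlapped. That probe stood at 0.35 ± 0.12, a fold of 1.28 (unadjusted p = 0.0321, adjusted p = 0.605, limma with Benjamini-Hochberg adjustment over all probes). Without array 4 the estimates of the 6 probes ran from -0.12 to 0.25 with a median of 0.08, against 0.03 to 0.35 and 0.21 with all arrays. The fitted dye effect of the 6 probes ran from 0.11 to 0.34 with a median of 0.21, against a median size of 0.13 over all probes. It was thus about as large as the median estimate. Red exceeded green on 4 of 4 arrays for 2 of the 6 probes, beside 11.7% of all probes. With pregnant RNA in Cy3 on every array 6 of 6 estimates were below 0, between -0.34 and -0.11.

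The SELENOM probe and this GPX1 probe were the 2 of 39 with an unadjusted p under 0.05 (5.13%, against 8.00% of all probes), 1 lower and 1 higher in pregnant animals. That share was below the background. Both also had a fold of at least 1.2, which 7.84% of all probes combined with that p, 3.35% of them higher and 4.50% lower in pregnant animals. Of the 39 probes 27 had an estimate above 0 and 12 below, beside 47.6% above and 52.4% below over all probes. SELENOP gave 9 of the 27, CAT 8 and GPX1 6, and probes of a gene share a transcript. By gene, the median estimate was above 0 for GPX1 (0.21), CAT (0.16), SELENOP (0.07) and SOD1 (0.0021). It was below 0 for SELENOM (-0.92), GPX4 (-0.17), PRDX6 (-0.06) and TXN (-0.01). Ratios of 1 sign on 4 of 4 arrays were found for 6 of 39 probes (15.4%, against 14.6% of all probes), 2 of them above 0 (6.81% of all probes) and 4 below 0 (7.75% of all probes).

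GPX4, the glutathione peroxidase that reduces lipid hydroperoxides within membranes and restrains ferroptosis, had 3 of 3 estimates below 0, of similar size. Its brightest probe had levels of 15.28, 14.99, 15.10 and 15.01 in pregnant animals and of 15.18, 15.51, 15.09 and 15.26 in cyclic animals. These overlapped, with the pregnant animal higher on arrays 1 and 3, the arrays with pregnant RNA in Cy3. The fitted dye effect of this probe was -0.22 ± 0.11. The estimates of the 3 probes were -0.16 ± 0.11, -0.17 ± 0.11 and -0.20 ± 0.12, with adjusted p between 0.631 and 0.658 (limma with Benjamini-Hochberg adjustment). Array 2 was the low one for all of them, at -0.55 to -0.43, and without it the estimates were -0.09 to -0.08. The dimmest probe had 4 pregnant values of 13.70 to 13.92 and 4 cyclic values of 13.97 to 14.25, the only probe besides that of SELENOM without overlap between the groups (2 of 39, against 2.11% of all probes). Its largest ratio was again that of array 2, and the other 3 arrays were between -0.11 and -0.07. With pregnant RNA in Cy3 on every array the 3 estimates were above 0, between 0.07 and 0.22.

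CAT, the peroxisomal catalase, had 8 of 9 estimates above 0, from -0.05 to 0.24 with a median of 0.16, and 0 of 9 at an unadjusted p under 0.05. The brightest probe had levels of 13.25, 12.85, 12.60 and 12.68 in pregnant animals, against 12.96, 12.58, 12.76 and 12.55 in cyclic animals, and an estimate of 0.13 ± 0.12 (adjusted p = 0.741, limma with Benjamini-Hochberg adjustment). The pregnant animal was higher on arrays 1, 2 and 4 and lower on array 3. On array 2 all 9 probes agreed in sign, at 0.24 to 0.52. Array 4 split them, with 3 probes above 0 (0.13, 0.13 and 0.21) and 6 below, down to -0.44, and array 1 ran from -0.04 to 0.97. CAT probe 3, counted from the brightest, showed the split most, at 0.97 on array 1 and -0.44 on array 4. Its fitted dye effect was -0.34 ± 0.18, and the pregnant animal was in Cy3 on array 1 and in Cy5 on array 4. In the single orientation the 2 ratios were 0.97 and 0.44. Without array 1 the median of the 9 estimates was 0.02, and without array 2 it was 0.03. In the single orientation 6 of 9 estimates were below 0, and the brightest probe stood at -0.06.

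SOD1, the copper and zinc superoxide dismutase of the cytosol, had the smallest spread between arrays of the 8 genes. Its brightest probe had levels of 15.50, 15.68, 15.78 and 15.90 in pregnant and 15.33, 15.70, 15.82 and 15.91 in cyclic animals. The 2 animals of an array differed by at most 0.17, and the groups overlapped. The SD of its 4 ratios was 0.09 and the estimate 0.03 ± 0.10 (adjusted p = 0.948, limma with Benjamini-Hochberg adjustment), with a 95% interval for the fold of 0.854 to 1.21. The second probe stood at -0.02 ± 0.11. Without array 1, the 1 array above 0 for both probes, the brightest stood at -0.02. In the single orientation the 2 estimates were 0.04 and 0.09.

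PRDX6, a peroxiredoxin with a single catalytic cysteine that also acts on phospholipids, was split between its probes. The brightest had levels of 11.18, 11.09, 11.20 and 11.25 in pregnant and 10.82, 10.90, 11.17 and 11.30 in cyclic animals, with an estimate of 0.13 ± 0.11. The second was above 0 on 4 of 4 arrays (against 6.81% of all probes), between 0.04 and 0.33, at 0.19 ± 0.10. The other 4 probes had estimates between -0.11 and -0.02. On array 3 the second probe was at 0.33 and the dimmest at -0.42. These 2 ratios still hold the dye effects of the probes, fitted at -0.12 ± 0.10 and 0.23 ± 0.10. Red exceeded green on 4 of 4 arrays for 3 of the 6 probes, beside 11.7% of all probes. In the single orientation the 6 estimates ran from -0.23 to 0.12, with 2 above 0 and 4 below. The lowest adjusted p of the gene was 0.614 (limma with Benjamini-Hochberg adjustment).

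TXN, thioredoxin, an electron donor of peroxiredoxins that thioredoxin reductase recharges, was level between the groups apart from array 2. The brightest probe had levels of 14.85, 14.56, 14.98 and 15.06 in pregnant animals, against 14.78, 14.91, 14.84 and 15.04 in cyclic animals. The ratios of its 2 probes on array 2 were -0.35 and -0.39, against 0.02 to 0.16 on the other arrays. Estimates were -0.03 ± 0.11 and 0.01 ± 0.13 (adjusted p = 0.947 and 0.994, limma with Benjamini-Hochberg adjustment), and the brightest stood at 0.06 without array 2. In the single orientation the estimates were 0.14 and 0.13.

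**Figure D3:**
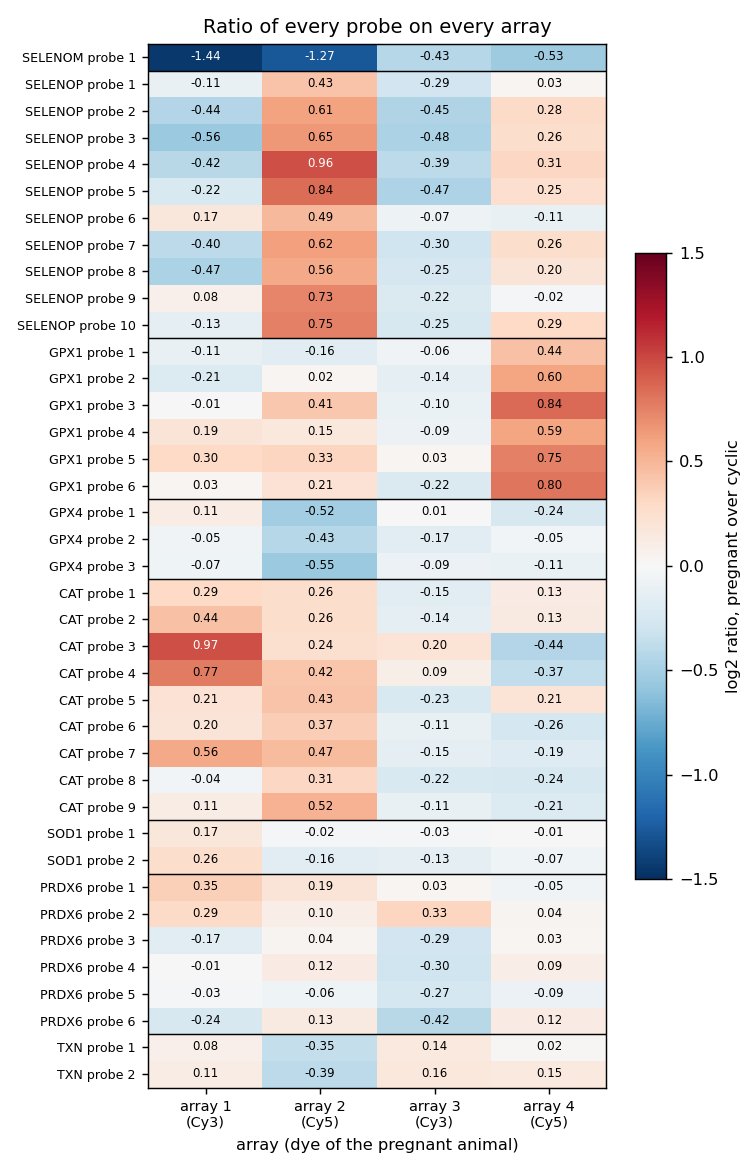
Log2 ratio of pregnant over cyclic (colour and printed value) for the 39 probes (rows, brightest probe of a gene first) on the 4 arrays (columns, with the dye of the pregnant animal). SELENOM is below 0 on every array, SELENOP alternates with the dye, GPX1 is highest on array 4 (0.44 to 0.84) and GPX4 and TXN are lowest on array 2.

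Probes of a gene mostly repeated each other on an array, while arrays differed. The SD between probes on an array, averaged over arrays, was 0.17 for SELENOP, 0.16 for GPX1, 0.09 for GPX4, 0.20 for CAT, 0.07 for SOD1, 0.17 for PRDX6 and 0.04 for TXN. The SD over arrays of the probes' median ratio was 0.46 for SELENOP, 0.34 for GPX1, 0.22 for GPX4, 0.29 for CAT, 0.14 for SOD1, 0.17 for PRDX6 and 0.24 for TXN. It was the larger of the 2 for SELENOP, GPX1, GPX4, CAT, SOD1 and TXN, and about equal for PRDX6. The ratios behind the SD over arrays still hold the dye effect of each probe, with a median of 0.38 for SELENOP and 0.21 for GPX1. That SD is therefore no measure of the animals alone. With its single probe, SELENOM had an SD over arrays of 0.51.

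**Figure D4:**
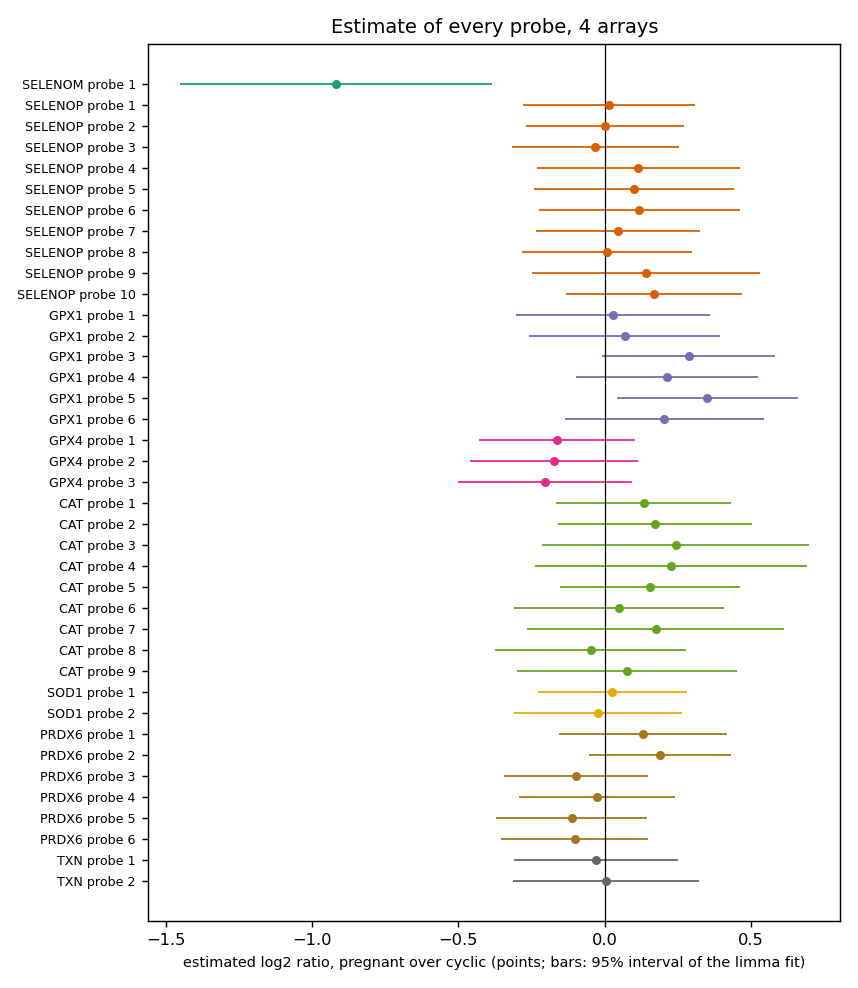
Estimated log2 ratio of pregnant over cyclic (x axis, points) with its 95% interval from the limma fit over 4 arrays (bars) for the 39 probes (rows, brightest of a gene first). The intervals of the SELENOM probe (-1.45 to -0.39) and of GPX1 probe 5 (0.04 to 0.66) lie off 0, and those of the other 37 cross it.

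Other genes of selenium and redox handling were taken from 7 lists of 115 genes, of which 50 had a named probe and 43 were tested. By the brightest probe of each gene, 16 estimates were above 0 and 27 below, beside 47.6% above and 52.4% below over all probes. These shares also stand beside the counts of each list below. The median was -0.07, beside -0.0096 over all probes. An unadjusted p under 0.05 was found for 2 genes on the higher side and 1 on the lower side (against 3.43% and 4.57% of all probes), and 0 passed adjustment (limma, smallest adjusted p = 0.605).

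Among the other selenoproteins, 12 of 21 tested, GPX3 stood lowest. GPX3, the secreted glutathione peroxidase, had ratios of -0.72, -1.16, -0.15 and -0.28, with arrays 1 and 2 the lower pair as for SELENOM. Its estimate was -0.58 ± 0.19 (unadjusted p = 0.0235, adjusted p = 0.605, limma with Benjamini-Hochberg adjustment), its 3 probes shared a sign, and with pregnant RNA in Cy3 on every array it was 0.14. TXNRD1, the cytosolic thioredoxin reductase, stood at 0.18 ± 0.10 by its brightest probe, although the other 3 probes had the opposite sign, and TXNRD2, its mitochondrial counterpart, at -0.13 ± 0.14 (0.0012 in the single orientation). The list had 3 estimates above 0, 9 below and a median of -0.05, and GPX3 was its 1 gene at an unadjusted p under 0.05.

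In selenium supply and selenocysteine insertion, 3 of 11 genes were tested. SECISBP2L, a relative of the protein that binds the selenocysteine hairpin, had ratios of 0.36, 0.42, 0.27 and 0.41, the smallest spread among the 20 genes named from these lists. Its estimate was 0.36 ± 0.10 (unadjusted p = 0.0116, adjusted p = 0.605, limma with Benjamini-Hochberg adjustment), and -0.05 with pregnant RNA in Cy3 on every array. LRP8, a SELENOP receptor, stood at -0.29 ± 0.15 with array 4 at 0.16, and RPL30, a ribosomal protein that also binds the hairpin, at -0.07 ± 0.11. The list had 1 estimate above 0, 2 below and a median of -0.07.

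The NRF2 response, heme, iron and metallothionein list had 10 of 20 genes tested, 2 with an estimate above 0 and 8 below, and a median of -0.15. MT1A, a metal-binding metallothionein, stood at 0.36 ± 0.13 (unadjusted p = 0.0336, adjusted p = 0.605, limma with Benjamini-Hochberg adjustment) from ratios of -0.21, 0.58, -0.03 and 1.11, so red exceeded green on every array. HMOX1, the inducible heme oxygenase, stood at 0.40 ± 0.20 by its brightest probe, and 2 of its 3 probes were above 0. The brightest was at 1.22 on array 2 and between 0.09 and 0.16 on the others. FTL, the ferritin light chain, stood at -0.26 ± 0.12 with array 1 at 0.19. For the single orientation, MT1A stood at -0.48, HMOX1 at -0.25 and FTL at 0.20. MT1A was the 1 gene of the list at an unadjusted p under 0.05.

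In glutathione synthesis, reduction and transfer, 8 of 23 genes were tested and 0 had an unadjusted p under 0.05, with 5 estimates above 0, 3 below and a median of 0.08. MGST1, a microsomal glutathione transferase, stood at 0.18 ± 0.13 with its 7 probes of 1 sign, GSTZ1, a transferase of tyrosine breakdown, at -0.14 ± 0.11, and GCLM, the modifier subunit of the first enzyme of glutathione synthesis, at 0.14 ± 0.11 with 3 of 4 pregnant channels above background. In the single orientation GSTZ1 stood at 0.0018 and GCLM at -0.14. Of the peroxiredoxins and thioredoxin system 5 of 23 were tested, 2 above 0 and 3 below with a median of -0.08 and 0 at an unadjusted p under 0.05. PRDX2, an abundant cytosolic peroxiredoxin, stood at 0.13 ± 0.10 (-0.21 in the single orientation), PRDX5 at -0.12 ± 0.10 and PRDX3, the mitochondrial one, at -0.17 ± 0.15 with array 1 at -0.79.

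Superoxide and copper handling had 2 of 7 genes tested. CP, the copper carrier ceruloplasmin, stood at -0.50 ± 0.26, with array 1 lowest (-1.23) and array 2 highest (0.37). CCS, the copper chaperone of SOD1, stood at 0.12 ± 0.13 by its brightest probe, and 1 of its 2 probes was above 0. The median of CP and CCS was -0.19 and 0 had an unadjusted p under 0.05. For NADPH supply 3 of 10 were tested, with TKT, transketolase, at -0.28 ± 0.17 (0.15 in the single orientation). IDH2, the mitochondrial isocitrate dehydrogenase, stood at 0.03 ± 0.10 by its brightest probe, and 1 of its 3 probes was above 0. TALDO1, transaldolase, stood at 0.01 ± 0.12. The median of the 3 genes was 0.01, and 0 had an unadjusted p under 0.05.

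**Figure D5:**
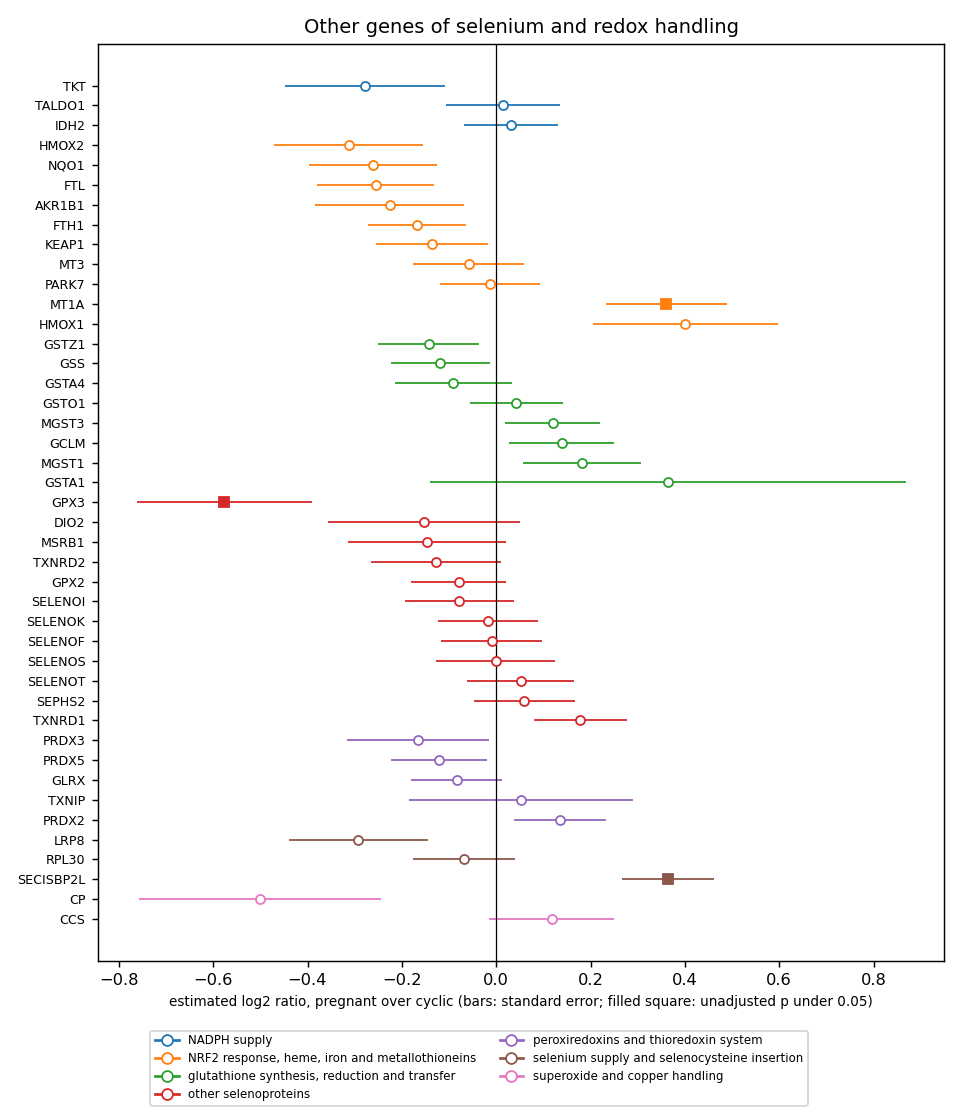
Estimated log2 ratio of pregnant over cyclic (x axis, points) with its standard error (bars) for the 43 other genes tested, by the brightest probe of each and coloured by list. GPX3 lies lowest at -0.58, and filled squares mark GPX3, SECISBP2L and MT1A, the 3 genes with an unadjusted p under 0.05.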

How the data were processed

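Anterior pituitary RNA of 4 pregnant and 4 cyclic gilts was compared on 4 Agilent two-colour arrays. Per the file headers, the scan resolution was 5 micron and the software Agilent Feature Extraction (version 10.7.3.1), and the deposited files hold median foreground and background intensity of each channel and processed intensity after background subtraction and dye normalization. The authors' deposited log2 value table equals log2 of the processed red over green intensity, turned to pregnant over cyclic on each array, within 0.001 for 43553 of 43553 probes spotted singly, and the deposited LogRatio column is the log10 ratio of red over green per the file headers. Its column medians were 0.15, -0.01, 0.06 and -0.07, and no statement of its centring was found.

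The median intensities were background-corrected by normexp with an offset of 50, with parameters estimated without spots the scanner software marked as outliers, and normalized by loess (span 0.3, 1417 control spots at weight 0). Outlier spots (26 to 63 per array) were left out and spots of a probe averaged. A probe was kept if 4 or more of its 8 channels were well above background, which left 25138 of 43603. The levels of single animals combine the loess ratios with quantile-normalized mean intensities. Probes were named by RefSeq accession through the Sscrofa11.1 RefSeq table (6700 probes). limma 3.58.1 in R 4.3.3 (data.table version 1.17.8, jsonlite version 2.0.0) fitted the ratio beside a dye effect for every kept probe, with Benjamini-Hochberg adjustment over all of them and a threshold of 0.05. The fit was tested on simulated data. A looser call took an unadjusted p under 0.05 and a fold of at least 1.2.

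The members, gene lists and tests were chosen with earlier results of these data known. Every member was named with all probes. From each list the genes at an unadjusted p under 0.05 were named, filled up to 3 by lowest p, and for the member probe of lowest p the 3 genes of most similar levels. Fits with other backgrounds, normalizations, dye terms, filters and probe rules and without single arrays were run as alternatives.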

Additional observations from a re-analysis of the deposited data

Results flagged for a closer look

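The 39 member probes and 20 other named genes gave 59 sets of 4 ratios in all. In 5 of them 1 array stood apart from the other 3 by the gap between them. Among independent values of 1 normal distribution about 1 in 20 sets would do so. These ratios hold the dye effect of each probe, and probes of a gene share a transcript, so that rate does not apply strictly. The brightest GPX1 probe was at 0.44 on array 4, with the other arrays between -0.16 and -0.06, just past the cutoff for standing apart. The dimmest GPX4 probe was at -0.55 on array 2, with the others between -0.11 and -0.07. The brightest SOD1 probe was at 0.17 on array 1, with the others between -0.03 and -0.01. The second TXN probe was at -0.39 on array 2, with the others between 0.11 and 0.16. HMOX1 was at 1.22 on array 2, with the others between 0.09 and 0.16. Array 2 was the one apart in 3 of these 5 sets.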

How the results depend on the processing

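No member probe passed adjustment under any of the 16 alternatives (limma, smallest adjusted p 0.162), and SELENOM stayed below 0 in all of them, from -1.17 to -0.02. Over all probes, 0 passed adjustment and 1972 the looser call, among them 2 member probes and 3 genes of the lists. With background parameters from all spots the looser counts were 761, 1 and 0, and CAT stood at -0.0131, SELENOP at -0.0559, TXN at 0.0901, FTL at 0.0210, GCLM at -0.0077 and RPL30 at 0.18. With an offset of 10, 3 probes passed adjustment, and with processed signals and loess also 3, with 1 member probe at the looser call and TXN at 0.0027. With median centring 1 member probe passed it, and the looser calls split into 354 higher and 1314 lower, against 841 and 1131. In separate channels 4 probes passed adjustment and 6 list genes the looser call, and with 1 probe per gene 1 member probe passed it. With pregnant RNA in Cy3 on all arrays 7 of 39 member probes passed it, all of them probes of SELENOP. In that reading 9.06% of all probes had an unadjusted p under 0.05 (limma). CAT then stood at -0.0622, GPX1 at -0.11, GPX4 at 0.22, SELENOP at -0.21 and TXN at 0.14. TKT stood at 0.15, MT1A at -0.48, FTL at 0.20, HMOX1 at -0.25 and GSTZ1 at 0.0018. GCLM stood at -0.14, GPX3 at 0.14, TXNRD2 at 0.0012, PRDX2 at -0.21 and SECISBP2L at -0.0471. With the mean over all probes of a gene, chosen after seeing the data, 1 member gene passed the looser call. PRDX6 then stood at -0.0026, IDH2 at -0.15, TXNRD1 at -0.0146 and CCS at -0.0813. The looser counts for separate channels, 1 probe per gene and the gene mean have no share over all probes beside them. They are no result about the members. Without single arrays, 0 to 7 probes passed adjustment (7 without array 1), 918 to 3235 passed the looser call (918 without array 1, 958 without array 2, 3235 without array 4), as did 1 to 3 member probes (1 without array 1, 3 or 4) and 0 to 6 list genes (0 without array 1, 5 without array 3, 6 without array 4). Estimates that crossed 0 without 1 array were those of SELENOP (-0.0864 without array 2 and -0.0307 without array 1, up to 0.115), SOD1 (-0.0235 without array 1, up to 0.0774), TXN (0.0620 without array 2, down to -0.122), GPX1 (-0.121 without array 4, up to 0.176), IDH2 (-0.0073 without array 2, up to 0.0680), TALDO1 (-0.0997 without array 3 and -0.0250 without array 4, up to 0.129), TXNRD2 (0.0350 without array 2, down to -0.289), CCS (-0.0160 without array 1, up to 0.251) and RPL30 (0.0076 without array 3, down to -0.144). The looser calls split into 570 higher and 388 lower without array 2 and into 1063 higher and 2172 lower without array 4. The causes were not tested. Each ratio already pairs the pregnant and the cyclic animal of 1 array, so no further fit with a replicate block was made.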
